A study of Sus scrofa with 6 samples.

Results

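Genes of endoplasmic reticulum (ER) protein folding and of the unfolded protein response were followed in subcutaneous fat of pigs on a resveratrol diet and of pigs on a control diet. A set of 33 genes was taken by name, as the known chaperones, quality control factors, sensors and effectors of this response, and 30 of them matched a row of the 22844 rows in the deposited gene tables. The genes were set in 2 arms. The chaperone arm, run by the transcription factors ATF6 and XBP1, had 24 of 25 genes with a row, and the ATF4 arm had 6 of 8. SDF2L1, ATF4 and DDIT3 had no row that the table of gene names pairs with them and were not analysed here. All 30 genes with a row passed the filter on low values, which asked for 0.5 TPM or more on average across the 6 libraries. TPM is an abundance corrected for transcript length and library depth.

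The tissue came from Duroc × Landrace × Yorkshire hybrids. The resveratrol group (3 libraries) received a diet containing 400 mg/kg resveratrol, a plant polyphenol, and the control group (3 libraries) a control diet. Age, sex, time on the diet and separate origin of the samples of a group are not given in the labels. The p-values therefore set the group difference only against the spread among these libraries, and that spread may be technical. Counted reads summed to 34653702, 37943877 and 34436239 reads in resveratrol 1, 2 and 3, against 31528317, 16251536 and 34048559 reads in control 1, 2 and 3, so control 2 was the shallowest. Adipocyte markers were present in each library: the 10 listed genes summed to 22433 to 28066 TPM in resveratrol and 18701 to 25678 TPM in control, with none at 0. Of these 10, 8 had a positive log2 fold change (median 0.18), 1 of them (GPD1) with an unadjusted p under 0.05 in edgeR. GPD1 and ADIPOQ were higher without overlap of the groups. Of all rows tested 2.21% were higher at that p, and 4.11% were higher without overlap in TPM. The 8 listed genes of tendon and cartilage summed to 27.2 to 46.8 TPM in the resveratrol libraries, against 532, 45.4 and 100.01 TPM in control 1, 2 and 3. All 8 had a negative log2 fold change (median -3.02), 4 of them with an unadjusted p under 0.05 in edgeR. At that p 4.32% of all rows were lower. In the case of COL2A1, a cartilage gene, the level was 0.936, 0.970 and 1.08 TPM in resveratrol 1, 2 and 3, against 11.8, 5.08 and 7.26 TPM in control 1, 2 and 3. The part of either list in the values of the ER genes was not tested.

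Proteins that enter the secretory pathway are folded in the ER by the HSP70 chaperone HSPA5 (also called BiP), its partner HSP90B1, the lectins CALR and CANX, and the protein disulfide isomerases. When unfolded protein accumulates, 3 membrane sensors respond: ERN1 (IRE1) splices XBP1 mRNA, ATF6 is cut to release a transcription factor, and EIF2AK3 (PERK) phosphorylates eIF2α, which lowers general translation and favours translation of ATF4. XBP1 and ATF6 drive chaperone and degradation genes, while ATF4 drives amino acid and feedback genes that other kinases of eIF2α can also induce. Fat cells secrete adipokines and lipoprotein lipase, so their ER handles a steady load. The gene tables have 1 row per gene and do not separate spliced from unspliced XBP1 mRNA, nor do they measure protein, phosphorylation or cleavage.

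The comparison asked how these genes differed between the diets. Most genes of the chaperone arm, which also holds sensors, XBP1 and genes of degradation and of protein entry into the ER, measured higher in resveratrol. Of 24, 23 had a positive log2 fold change, with a median of 0.27, whereas 48.8% of all 14908 rows tested were positive (median -0.01). PDIA3, ATF6, SEL1L and PDIA6 were among the positive genes at 0.00, 0.02, 0.04 and 0.08, and changed sign in other fits. The 24 genes were read in the same 6 libraries, so their signs are not separate observations. In the ATF4 arm 2 of 6 were positive, with a median of -0.03. HSPA5, HERPUD1, TRIB3 and HYOU1 stood out, with 1.63-, 1.46-, 1.53- and 1.35-fold higher counts and an unadjusted p under 0.05. No member passed an adjusted p of 0.05 in edgeR's quasi-likelihood test, adjusted by Benjamini-Hochberg over the 14908 rows. The test called 0 rows (0%), with 973 at an unadjusted p under 0.05, and the smallest adjusted p of a member was 0.733. DESeq2 called 40 rows, 0 of them members.

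At an unadjusted p under 0.05, 4 of 30 members were higher in resveratrol, where 2.21% of all rows were, and 0 were lower, where 4.32% of all rows were. In DESeq2, 5 members were higher at that p, where 2.36% of all rows were, and 0 were lower, where 5.02% were. Without control 1 the higher members were 8, where 2.90% of all rows were, and without resveratrol 1 they were 2, where 1.5% were. The scaling moved the split over all rows: 329 were higher and 644 lower with TMM, and 605 were higher and 339 lower with library totals alone, where 7 members were higher. HSPA5 and HERPUD1 were the pair that stayed under 0.05 in each of the 6 fits that left out a library, while TRIB3 did so in 4 and HYOU1 in 2. The members were chosen with earlier results of these data known, so these counts are descriptions.

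**Figure D1:**
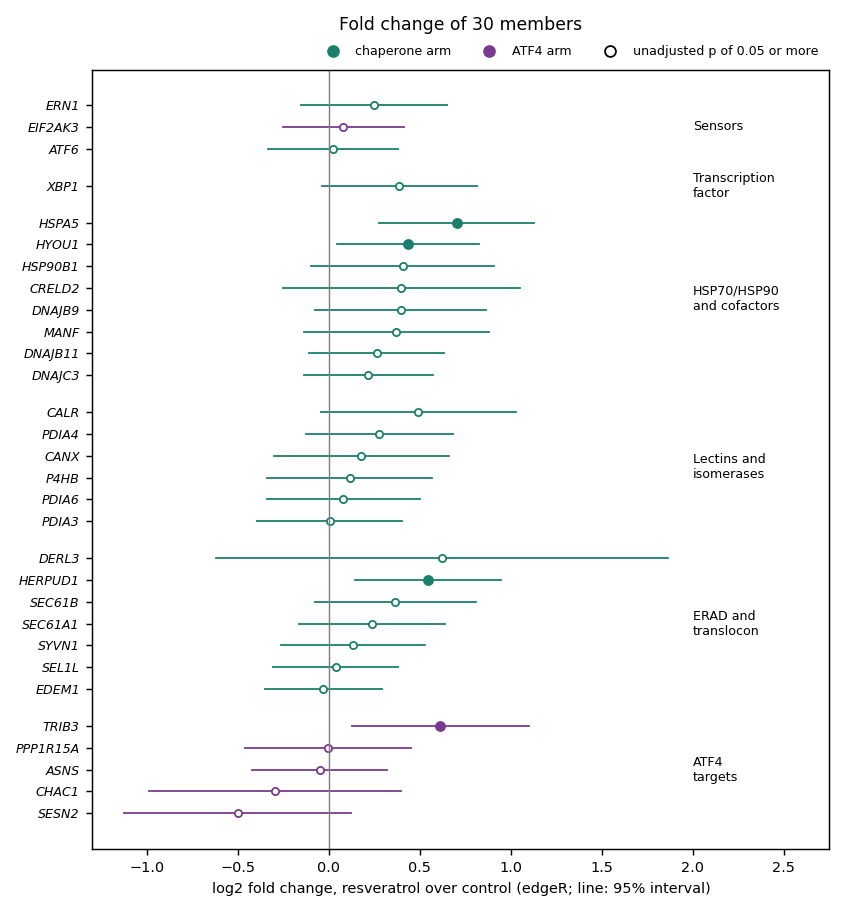
Log2 fold change of each of the 30 members, resveratrol over control, from edgeR on counts, with its 95% interval, grouped by role. Filled points have an unadjusted p under 0.05; the points run from -0.50 for SESN2 to 0.70 for HSPA5, and the intervals of HSPA5, HYOU1, HERPUD1 and TRIB3 lie above 0.

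Values per library are given below as CPM, read counts corrected for library depth and scaled by TMM. This is the scale of the test and compares libraries for 1 gene. Levels of different genes are compared in TPM, which takes transcript length into account. The scales differ by library: the median row had 0.652 TPM per CPM in control 2 and 0.502 to 0.559 in the other 5 libraries, so control 2 stands higher on the TPM scale than on the CPM scale.

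HSPA5 (ENSSSCG00000005601.3), the HSP70 of the ER lumen and the usual marker of the response, measured 684, 584 and 689.8 CPM in resveratrol 1, 2 and 3, against 464, 400.4 and 340.3 CPM in control 1, 2 and 3. Every resveratrol library lay above every control library, also in TPM (195 ± 14.5 TPM in resveratrol and 129 ± 23.2 TPM in control, SD, n = 3 each). The log2 fold change was 0.70 (SE 0.19), with a 95% interval of 0.27 to 1.13. The edgeR unadjusted p was 0.00436 and the adjusted p 0.733. In DESeq2 the log2 fold change was 0.70 and the adjusted p 0.0550, the smallest of any member under any alternative. Leaving out each library in turn gave log2 fold changes between 0.60 and 0.82.

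HSP90B1, the ER form of HSP90, measured 302, 221 and 313 CPM in resveratrol 1, 2 and 3, against 231, 247 and 153 CPM in control 1, 2 and 3. The groups overlapped, since resveratrol 2 lay below control 1 and control 2, and the log2 fold change was 0.40 (SE 0.23). HYOU1, an HSP110-type partner that exchanges nucleotide on HSPA5, measured 87.1, 77.3 and 65.6 CPM in resveratrol 1, 2 and 3, against 66.2, 53.7 and 50.2 CPM in control 1, 2 and 3. Its log2 fold change was 0.44 (SE 0.18), edgeR's adjusted p was 0.733, and resveratrol 3 lay just below control 1.

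The J-domain proteins hand substrates to HSPA5 and stimulate its ATPase. DNAJB9 measured 34.6, 26.9 and 44.0 CPM in the resveratrol libraries, against 24.7, 32.3 and 23.3 CPM in the control libraries, and its log2 fold change was 0.39 (SE 0.21). Resveratrol 3 was the highest library and control 3 the lowest, with resveratrol 2 below control 2. The log2 fold change of DNAJB11 was 0.26 (SE 0.17) and that of DNAJC3 0.21 (SE 0.16). MANF, a secreted ER-resident stress factor, measured 21.1, 15.5 and 13.7 CPM in the resveratrol libraries, against 15.4, 13.7 and 9.77 CPM in the control libraries, with a log2 fold change of 0.37 (SE 0.23). CRELD2, a secreted stress-induced protein, measured 19.3, 19.0 and 20.6 CPM in the resveratrol libraries, against 15.7, 7.80 and 20.9 CPM in the control libraries. Control 2 was the lowest and control 3 the highest of the 6 libraries, and the log2 fold change of 0.40 (SE 0.29) became 0.10 without control 2 and 0.73 without control 3. All 8 tested genes of this role were positive, with a median of 0.40.

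**Figure D2:**
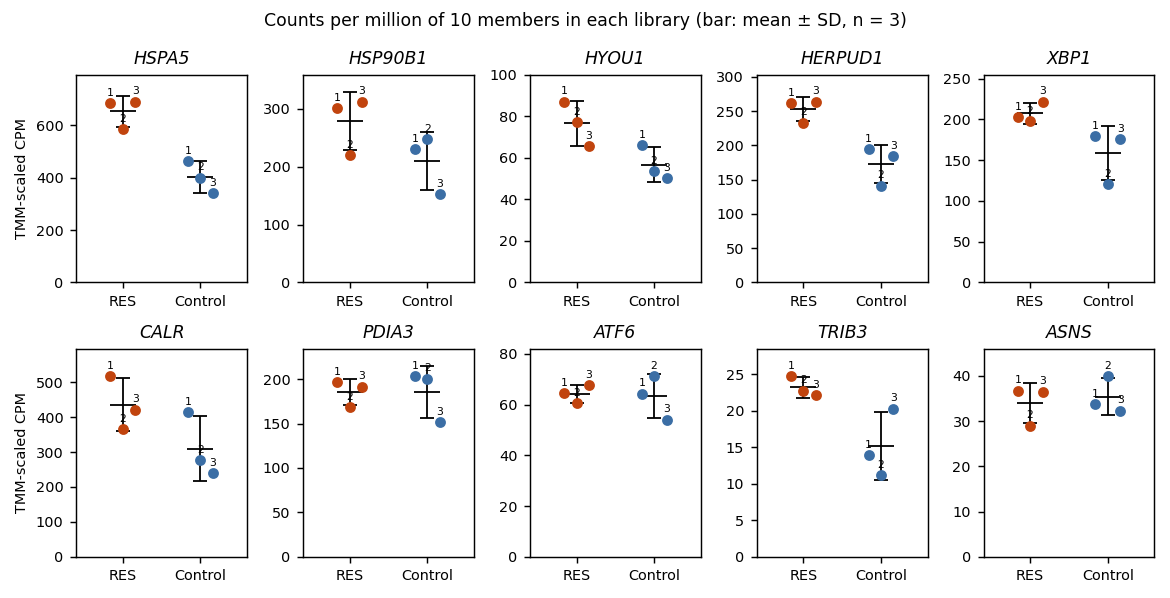
TMM-scaled CPM of 10 members in each library (points, numbered by replicate), with the mean and SD of the 3 resveratrol (RES) and the 3 control libraries. The groups do not overlap for HSPA5, HERPUD1, XBP1 and TRIB3 and overlap for HSP90B1, HYOU1, CALR, PDIA3, ATF6 and ASNS.

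The lectin chaperones bind glycoproteins during the calnexin cycle, in which the isomerase PDIA3 forms their disulfide bonds. CALR measured 518, 367 and 422 CPM in resveratrol 1, 2 and 3, against 414, 276 and 239 CPM in control 1, 2 and 3. Its log2 fold change was 0.49 (SE 0.24) with an unadjusted p of 0.0672 in edgeR, and resveratrol 2 lay below control 1. CANX, its membrane-bound relative, measured 623, 482 and 709.6 CPM in the resveratrol libraries, against 582, 592 and 431 CPM in the control libraries, and the log2 fold change was 0.18 (SE 0.22). PDIA3 measured 196, 169 and 192 CPM in the resveratrol libraries, against 204, 201 and 151 CPM in the control libraries. Its log2 fold change was 0.00 (SE 0.18) with a 95% interval of -0.39 to 0.40.

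Among the other disulfide isomerases, PDIA4 measured 169.7, 145 and 157 CPM in the resveratrol libraries, against 158, 118 and 113 CPM in the control libraries, with a log2 fold change of 0.28 (SE 0.18). PDIA6 and P4HB, which is also a subunit of the collagen prolyl 4-hydroxylase, stood at 0.08 (SE 0.19) and 0.11 (SE 0.20) on the log2 fold change scale. P4HB spread less in resveratrol (442 to 489 CPM) than in control (327 to 505 CPM). The log2 fold changes of PDIA3 and PDIA6 turned negative in limma on log2(TPM + 0.5), at -0.08 and -0.01. The 6 lectins and isomerases had a median of 0.15, and none had an unadjusted p under 0.05.

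ER-associated degradation (ERAD) sends misfolded proteins back to the cytosol through a membrane ubiquitin ligase complex. HERPUD1 (ENSSSCG00000040663.1), a stress-induced scaffold of that complex, measured 262, 233 and 264 CPM in resveratrol 1, 2 and 3, against 194, 141 and 184 CPM in control 1, 2 and 3. All resveratrol libraries lay above all control libraries, and TPM averaged 146 ± 9.05 TPM in resveratrol and 107 ± 3.74 TPM in control (SD, n = 3 each). The log2 fold change was 0.55 (SE 0.18), with a 95% interval of 0.14 to 0.95, an unadjusted p of 0.0126 and an edgeR adjusted p of 0.733. It ran from 0.42 to 0.64 with a library left out.

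Among the other ERAD factors, SEL1L, the adaptor of the ligase, and EDEM1, a mannosidase-like protein that marks glycoproteins for disposal, had log2 fold changes near 0, at 0.04 (SE 0.15) and -0.03 (SE 0.14). EDEM1 was the one negative gene of the chaperone arm and measured 57.9, 56.7 and 55.0 CPM in the resveratrol libraries, against 53.9, 61.2 and 58.2 CPM in the control libraries. DERL3, a channel-like ERAD protein, was the least abundant member and counted 38, 33 and 34 reads in resveratrol 1, 2 and 3, against 33, 3 and 16 reads in control 1, 2 and 3. Its log2 fold change of 0.62 (SE 0.56) rests on these few reads, and was 0.24 without control 2 and 1.38 without control 1.

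The row named SYVN1, the ubiquitin ligase itself, measured 269.7, 271 and 284 CPM in the resveratrol libraries, against 266, 207 and 279 CPM in the control libraries, and the log2 fold change was 0.13 (SE 0.18). Its mean level was 889 ± 21.6 TPM in resveratrol and 848 ± 33.7 TPM in control (SD, n = 3 each), the highest level of all members. Its reads per TPM, which reflect transcript length, were 0.141 times those of the median row. FAU, taken as a neighbour of SYVN1 without a check of its position here, encodes a ribosomal protein fused to a ubiquitin-like domain. The row named FAU held 7.54 to 12.5 TPM in resveratrol and 9.64 to 12.6 TPM in control, with 1.40 times the median reads per TPM. Which gene the reads of the row named SYVN1 come from was not tested, and its level is reported as uncertain. Without it the median log2 fold change of the chaperone arm was 0.28.

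The translocon passes nascent proteins into the ER. SEC61B, its beta subunit, measured 85.4, 77.9 and 99.6 CPM in the resveratrol libraries, against 81.7, 50.8 and 71.4 CPM in the control libraries, and the log2 fold change was 0.37 (SE 0.20). In TPM the groups did not overlap (588, 539 and 628 TPM in resveratrol 1, 2 and 3, against 533, 426 and 470.4 TPM in control 1, 2 and 3), while in CPM resveratrol 2 lay below control 1. SEC61A1, which forms the channel, measured 313, 312 and 331 CPM in the resveratrol libraries, against 319, 232 and 261 CPM in the control libraries, with a log2 fold change of 0.24 (SE 0.18).

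XBP1 (ENSSSCG00000030996.2), the transcription factor that ERN1 activates by splicing and also a target of ATF6, measured 202, 198 and 222 CPM in resveratrol 1, 2 and 3, against 179, 121 and 176 CPM in control 1, 2 and 3. The groups did not overlap in CPM or in TPM (183 ± 1.74 TPM in resveratrol and 148 ± 12.0 TPM in control, SD, n = 3 each). Its log2 fold change was 0.39 (SE 0.19), with a 95% interval of -0.04 to 0.81 and an edgeR adjusted p of 0.733. It was 0.23 without control 2, the lowest library.

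The 3 sensors had log2 fold changes of 0.02 to 0.25. ERN1 measured 26.1, 24.5 and 33.1 CPM in the resveratrol libraries, against 25.5, 19.7 and 25.2 CPM in the control libraries, with a log2 fold change of 0.25 (SE 0.18). Its TPM did not overlap between the groups (21.3, 20.2 and 24.7 TPM in resveratrol 1, 2 and 3, against 19.99, 19.0 and 19.9 TPM in control 1, 2 and 3), but its CPM did. ATF6 measured 64.4, 60.6 and 67.7 CPM in the resveratrol libraries, against 64.3, 71.3 and 54.1 CPM in the control libraries. The log2 fold change was 0.02 (SE 0.16), with a 95% interval of -0.33 to 0.38, and it turned negative, at -0.06, in limma on log2(TPM + 0.5). EIF2AK3, which opens the ATF4 arm, measured 53.8, 47.2 and 51.8 CPM in the resveratrol libraries, against 52.6, 45.4 and 46.6 CPM in the control libraries, with a log2 fold change of 0.08 (SE 0.15) that was -0.02 in limma on log2(TPM + 0.5).

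Of 5 ATF4 targets with a row, 1 was positive. This was TRIB3 (ENSSSCG00000039862.1), a pseudokinase that restrains AKT and ATF4, which measured 24.8, 22.8 and 22.1 CPM in resveratrol 1, 2 and 3, against 13.9, 11.2 and 20.3 CPM in control 1, 2 and 3. Control 3 came close to the resveratrol libraries without overlapping them, and TPM averaged 14.5 ± 1.49 TPM in resveratrol and 9.93 ± 2.37 TPM in control (SD, n = 3 each). The log2 fold change was 0.61 (SE 0.22), with a 95% interval of 0.13 to 1.10, an unadjusted p of 0.0183 and an edgeR adjusted p of 0.733. It was 0.88 without control 3 and 0.44 without control 2.

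ASNS, the asparagine synthetase and a standard ATF4 target, measured 36.8, 29.0 and 36.5 CPM in resveratrol 1, 2 and 3, against 33.8, 40.0 and 32.3 CPM in control 1, 2 and 3. The groups overlapped throughout, and the log2 fold change was -0.05 (SE 0.17), with a 95% interval of -0.42 to 0.32. PPP1R15A, the phosphatase subunit that reverses eIF2α phosphorylation, had a log2 fold change of -0.01 (SE 0.21). CHAC1, an enzyme that breaks down glutathione, measured 3.97, 3.24 and 4.04 CPM in the resveratrol libraries, against 4.997, 2.69 and 6.03 CPM in the control libraries, a log2 fold change of -0.30 (SE 0.31). SESN2, a stress-induced inhibitor of mTORC1, measured 1.05, 1.57 and 1.67 TPM in resveratrol 1, 2 and 3, against 1.74, 2.67 and 2.17 TPM in control 1, 2 and 3. In TPM it was the one member whose resveratrol libraries all lay below the control libraries, but resveratrol 3 and control 1 crossed in CPM, at 4.04 and 3.95, and the log2 fold change was -0.50 (SE 0.28) with an edgeR adjusted p of 0.733. The sign of the ATF4 arm's median was not stable: it ran from -0.08 without control 3 to 0.03 without control 1.

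In CPM, 4 of 30 members (HSPA5, HERPUD1, XBP1 and TRIB3) had their lowest resveratrol library above their highest control library, where 5.67% of all rows did, and 0 were lower, where 6.97% were. In TPM, 6 members were higher without overlap, where 4.11% of all rows were, and 1 was lower, where 8.15% were.

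Levels spanned a wide range. Apart from the row named SYVN1, SEC61B was highest (585 ± 44.4 TPM in resveratrol and 477 ± 53.6 TPM in control, SD, n = 3 each). That rank rests on the length correction, since its reads per TPM were 0.0678 times those of the median row, the lowest of all members. In CPM it averaged 87.6 in resveratrol and 68.0 in control, below HSPA5, CANX and CALR. By mean over all 6 libraries CANX, CALR, P4HB, XBP1 and HSPA5 followed, whose resveratrol means lay between 183 and 225 TPM and control means between 129 and 193 TPM. The ranges of CANX, CALR and P4HB overlapped in both groups, as did those of XBP1 and HSPA5 in the resveratrol group and in the control group. By group mean HSPA5 stood above P4HB and XBP1 in resveratrol and below both in control. Single libraries departed from this order. In resveratrol 2 HSPA5 (181.4 TPM) lay below P4HB (200.2 TPM), and in control 2 HSPA5 (144.9 TPM) lay above XBP1 (135.6 TPM). The ranges of HSPA5 and P4HB overlapped in resveratrol. At the low end, CHAC1, SESN2 and DERL3 averaged 4.81, 1.43 and 1.13 TPM in resveratrol and 6.03, 2.19 and 0.710 TPM in control. The ATF4 arm summed to 55.2 to 66.8 TPM in resveratrol and 57.3 to 66.1 TPM in control, while the chaperone arm summed to 3109 to 3393 TPM in resveratrol and 2650.5 to 2987 TPM in control. Without the row named SYVN1 the remaining members summed to 2261 to 2570 TPM in resveratrol and 1820 to 2221 TPM in control.

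**Figure D3:**
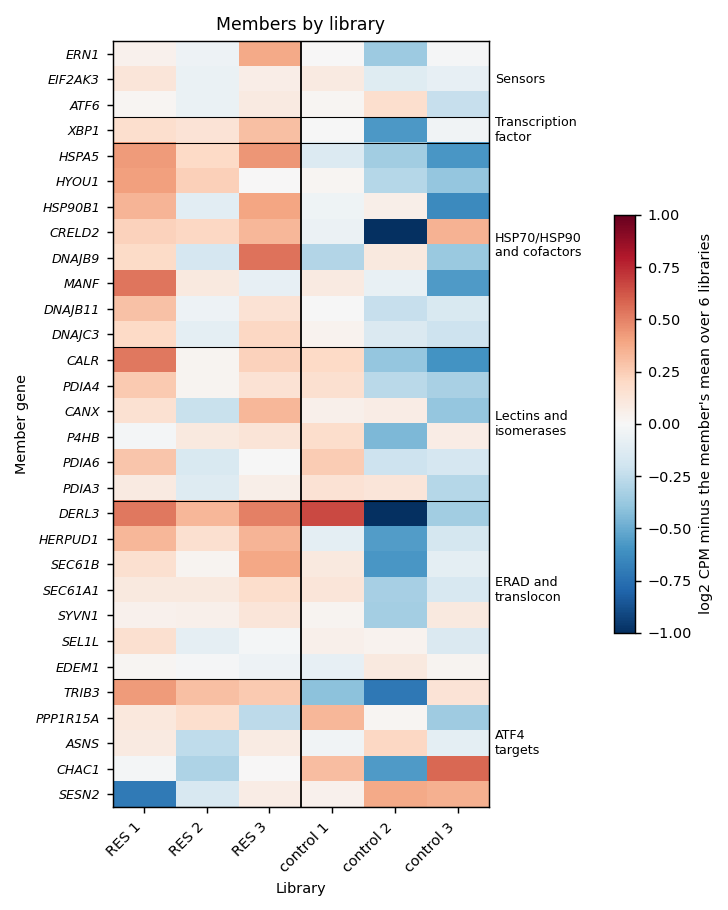
Log2 CPM of each member minus its mean over the 6 libraries, by role (rows) and library (columns, resveratrol left of control); red is above and blue below the mean, and values beyond 1 in either direction have the end colour. Resveratrol 1 and 3 are red and control 2 and 3 blue for most of the chaperone arm, while resveratrol 2 and control 1 lie near the mean.

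The libraries of a group differed among themselves. The median deviation of the chaperone arm from the mean of all 6 libraries was 0.20, 0.03 and 0.20 log2 units in resveratrol 1, 2 and 3, against 0.03, -0.28 and -0.19 in control 1, 2 and 3. Resveratrol 2 and control 1 thus stood at about the same level. Of 24 genes of the chaperone arm, 12 had their lowest value in control 3, 11 in control 2 and 1 in control 1. The highest value fell in resveratrol 3 for 11, in resveratrol 1 for 7 and in a control library for 6 genes. Such counts were not made over all rows, and control 2 was the shallowest library. They therefore cannot be read as a trait of the chaperone arm. The ATF4 arm had medians of 0.10, -0.11 and 0.07 in resveratrol and 0.07, -0.05 and 0.03 in control.

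**Figure D4:**
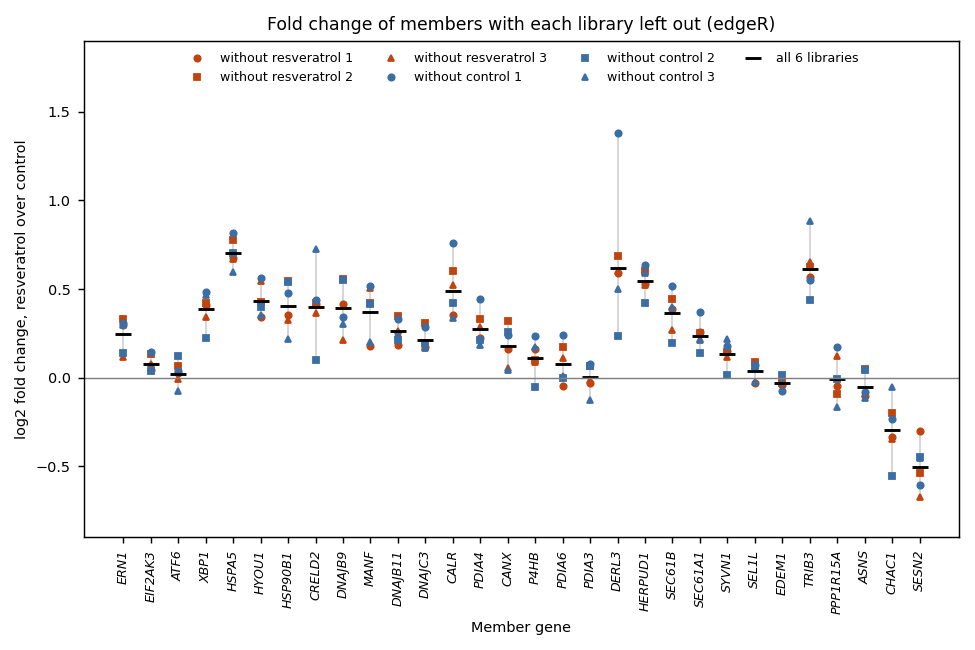
Log2 fold change of each member, resveratrol over control, with all 6 libraries (black bars) and with 1 library left out (coloured points; edgeR). All points of 22 members lie on the same side of 0 as the value from all 6 libraries; DERL3, CRELD2, TRIB3 and CALR spread the most on the positive side.

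With a library left out, 22 of 30 members kept their sign in all 6 fits, 18 of them in the chaperone arm. The median of the arm ran from 0.21 without control 2 to 0.35 without control 1. CALR was 0.76 without control 1 and 0.34 without control 3, and HSP90B1 0.22 without control 3.

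Markers of other cells were measured alongside. The 10 listed macrophage genes summed to 591 to 854 TPM in resveratrol and 468 to 547 TPM in control, none at 0. All 10 had a positive log2 fold change (median 0.47), and 5 had an unadjusted p under 0.05 in edgeR. At that p 2.21% of all rows were higher. MSR1 and TYROBP were higher without overlap of the groups in CPM and in TPM, and AIF1 and CTSS in CPM alone. Of all rows 5.67% were higher without overlap in CPM and 4.11% in TPM. In bulk tissue, more cells of a type and more RNA per cell cannot be told apart. The part of macrophages in the chaperone values was not tested. For plasma cells, which carry much ER, the 10 listed genes of plasma and B cells summed to 15.6 to 16.6 TPM in resveratrol and 14.4 to 21.3 TPM in control, and CD79B was at 0 in control 2. The listed fibroblast genes summed to 5309 to 7543 TPM in resveratrol and 5787 to 11992 TPM in control, highest in control 1. Of the endothelial genes 5 of 7 had a row and summed to 205 to 230 TPM in resveratrol and 213 to 298 TPM in control. Skeletal muscle genes (3 of 8 with a row) summed to at most 0.843 TPM in resveratrol and 1.40 TPM in control, with TNNT3 at 0 in resveratrol 3 and control 3. Skin epithelium genes (4 of 6 with a row) reached at most 1.35 TPM in resveratrol and 1.98 TPM in control, with KRT1 at 0 in all libraries. Of the 10 fibroblast genes 6 were positive, 4 were negative, and the median was 0.06. The most negative was COL1A1, a collagen chain and heavy ER cargo, at -1.40 (SE 0.52). It measured 5711, 7881 and 5045 CPM in the resveratrol libraries, against 28626, 5335 and 15140 CPM in the control libraries. The groups thus overlapped, and control 1 was the highest library. The part of fibroblasts was not tested.

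In 7 further lists of the pathway 0 genes passed the adjusted test, and the genes named here are those with the smallest unadjusted p. Beside the counts of these lists, 2.21% of all rows were higher and 4.32% lower at an unadjusted p under 0.05 in edgeR. Of 27 further ER folding genes tested, 19 were positive (median 0.12), and 3 were higher and 0 lower at an unadjusted p under 0.05 in edgeR. The 3 were SDF2, a relative of SDF2L1 in the ER, ERP29, a redox-inactive relative of the isomerases, and FKBP2, a prolyl isomerase. Their log2 fold changes were 0.40 (SE 0.16), 0.42 (SE 0.18) and 0.44 (SE 0.19). SDF2 measured 49.6, 47.9 and 59.6 CPM in the resveratrol libraries, against 42.7, 36.5 and 39.5 CPM in the control libraries, without overlap of the groups.

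Of 18 genes of glycosylation and the calnexin cycle, 15 were positive (median 0.14). The 3 named are subunits of the oligosaccharyltransferase, with log2 fold changes of 0.34 (SE 0.15) for DAD1, 0.35 (SE 0.16) for STT3A and 0.42 (SE 0.20) for OSTC. DAD1 alone had an unadjusted p under 0.05 and measured 50.3, 49.6 and 55.3 CPM in the resveratrol libraries, against 42.8, 37.8 and 42.2 CPM in the control libraries. Of 20 translocon genes, 15 were positive (median 0.15). Named are SRPRB, a subunit of the signal recognition particle receptor, and SSR3 and SSR4 of the translocon-associated complex, at 0.36 (SE 0.16), 0.37 (SE 0.17) and 0.41 (SE 0.20). Of the 20, SRPRB alone had an unadjusted p under 0.05. Of ERAD genes outside the members 13 of 21 were positive, with a median of 0.01. EDEM2, AUP1 and DERL2 stood at 0.29 (SE 0.16), 0.29 (SE 0.18) and 0.28 (SE 0.17), and 0 of the 21 had an unadjusted p under 0.05.

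**Figure D5:**
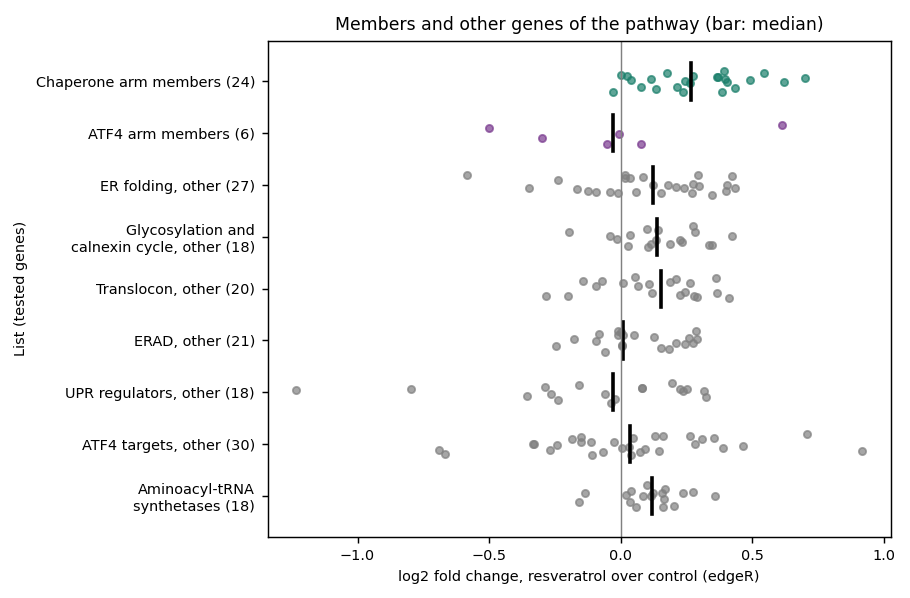
Log2 fold change, resveratrol over control, of every tested gene (points) in the 2 arms and in 7 further lists of the pathway, with the median as a bar. The chaperone arm has a median of 0.27, against 0.01 to 0.15 for the other lists of folding, glycosylation, translocon and ERAD genes. Members and lists were chosen with earlier results of these data known, so the medians are descriptions.

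Further regulators of the response had a median of -0.03, with 8 of 18 positive and 3 lower at an unadjusted p under 0.05 in edgeR. Of all rows 4.32% were lower at that p. CREB3L1, an ER-anchored relative of ATF6 that drives collagen genes, measured 9.41, 9.48 and 5.53 CPM in resveratrol 1, 2 and 3, against 28.1, 9.99 and 19.2 CPM in control 1, 2 and 3, and its log2 fold change was -1.23 (SE 0.36). It was highest in control 1, the library with the high tendon and cartilage genes. The part of that tissue was not tested. WFS1, an ER membrane protein that limits ATF6, measured 8.48, 7.99 and 5.94 CPM in the resveratrol libraries, against 12.1, 13.0 and 13.9 CPM in the control libraries, with a log2 fold change of -0.80 (SE 0.20) and an edgeR adjusted p of 0.721. CREB3L2, a relative of CREB3L1, had a log2 fold change of -0.35 (SE 0.16). For all 3 genes the resveratrol libraries lay below the control libraries in CPM and in TPM. For CREB3, of the same list, they lay above in both. In TPM 5 of the 18 genes were lower without overlap, where 8.15% of all rows were, and 2 were higher, where 4.11% were. In CPM 6.97% of all rows were lower without overlap and 5.67% higher.

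Among 30 further ATF4 targets 17 were positive (median 0.03), with 2 higher and 1 lower at an unadjusted p under 0.05 in edgeR. Of all rows 2.21% were higher and 4.32% lower at that p. NUPR1, a stress-induced chromatin protein, measured 641, 333 and 573 CPM in resveratrol 1, 2 and 3, against 375, 221 and 222 CPM in control 1, 2 and 3. Its log2 fold change was 0.92 (SE 0.29), though resveratrol 2 lay below control 1. SLC3A2, the heavy chain of amino acid exchangers, stood at 0.47 (SE 0.20) on the log2 fold change scale, and SLC7A1, a transporter of cationic amino acids, at -0.69 (SE 0.29). Of 18 aminoacyl-tRNA synthetases, many of them ATF4 targets, 16 were positive with a median of 0.12, and 0 had an unadjusted p under 0.05 in edgeR. RARS1, QARS1 and KARS1 had log2 fold changes of 0.36 (SE 0.18), 0.28 (SE 0.17) and 0.24 (SE 0.18).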

How the data were processed

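Total RNA of subcutaneous fat was sequenced after lncRNA library preparation, per the labels' protocols. Each of 6 tables deposited by the authors gives, per the file headers, gene read counts (whole numbers) and TPM. A series table holds TPM of the 14777 rows with at least 1 TPM in a library, equal to the library tables, and was not used further. The submitters' processing notes list mm8 and mm9, which are mouse builds, and Bowtie 0.12.2, although the identifiers are those of pig Ensembl genes. No source used here gives the pig build, annotation, counter or use of strand, so reads of overlapping, antisense or near-identical genes cannot be assigned with certainty. Symbols came from a table of Ensembl identifiers, and 14750 of 22844 rows matched. Promoter and protein sequences were not analysed here.

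Groups and replicate numbers came from the titles. The 14908 rows whose mean reached 0.5 TPM were tested with edgeR 4.0.16 (TMM, robust quasi-likelihood test, Benjamini-Hochberg over all rows, threshold 0.05; biological coefficient of variation 0.235). The SE is the size of the log2 fold change divided by the square root of F, and 95% intervals use the t distribution of the fit. R 4.3.3, limma 3.58.1 and DESeq2 1.42.0 served for alternatives. The fits were also run on simulated counts, with larger changes than any member had in the main fit and less spread than these data. Those runs do not cover changes of the size seen in the members. Intervals and tests cover no more than the spread among 3 libraries per group.

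The members and lists were chosen with earlier results of these data known. Values in every library are given for members with an unadjusted p under 0.05 or TPM without overlap. They were also planned for 11 members in any case, of which ATF4 and DDIT3 had no row. Of each further list up to 3 genes with the smallest p are named. Library values of further members were added after they were seen, as were FAU, COL1A1 and the median without SYVN1.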

Additional observations from a re-analysis of the deposited data

How the results depend on the processing

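Over 17 alternatives, 21 of 30 members kept the sign of their log2 fold change in every one, 18 of them in the chaperone arm. DERL3 was not tested with a mean of at least 1 TPM. The 9 that changed sign in at least 1 had log2 fold changes of at most 0.11 in size. PDIA3, PDIA6, ATF6, SEL1L and EIF2AK3 turned negative on log2 TPM, and EDEM1, ASNS and PPP1R15A positive with library totals alone, while P4HB was negative without control 2. The number of members called was 0 under all 17, with adjusted p-values of members from 0.0550 to 0.99996. The chaperone median ran from 0.18 in limma on log2(TPM + 1), where the median of all rows was -0.07, to 0.34 with library totals alone, where it was 0.06. It ran from 0.21 to 0.35 with a library left out. The ATF4 median ran from -0.12 to 0.03, and from -0.08 to 0.03 with a library left out. Members higher at an unadjusted p under 0.05 were 7 with library totals alone, where 4.06% of all rows were, and 2 to 8 with a library left out, where 1.21% to 4.29% were. Members lower were 0 to 1, the 1 being CHAC1 without control 2, where 5.69% of all rows were lower. Over all rows, edgeR called 0 at an adjusted p under 0.05 (973 at an unadjusted p), DESeq2 called 40, and fits with a library left out called 0 to 5, the 5 without control 2. The unadjusted count was 403 to 1681 with a library left out, lowest without resveratrol 3 and highest without control 3. The cause was not tested.

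Same-numbered libraries had correlations of deviations of 0.16, 0.07 and 0.20 for numbers 1, 2 and 3, against at most 0.01 for differently numbered libraries. Each library thus correlated best with its own number. The correlations cannot decide whether the numbers pair the samples, because deviations were centred within each small group. The labels give no pairing, and the main fit used none. With the replicate number as a block, 7 members were higher at an unadjusted p under 0.05, where 3.00% of all rows were, 1259 rows in all had such a p in either direction, and 0 were called. Depth limits DERL3 most, with 3 to 38 reads per library.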

Other observations

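For the 30 members the group means of log2 reads per TPM differed by -0.02 to 0.03 (resveratrol minus control), with the largest difference at HERPUD1. The means hide a shift in control 2, where HERPUD1 stood at -0.50, against -0.38 to -0.31 in the other libraries. For HERPUD1, control 2 was the lowest control library in CPM, at 141, but the highest in TPM, at 109.7. XBP1 was also lowest in control 2, at -1.03 log2 reads per TPM. The cause was not tested. A single assembled locus without a gene symbol took 18.8% to 22.2% of all TPM in resveratrol and 16.6% to 25.8% in control, highest in control 1. TPM sums to the same total in every library, so this share is not available to other rows.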
